A study of Mus musculus with 10 samples.

Results

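The genes described are the hemoglobin genes and Alas2, the erythroid enzyme that starts heme synthesis, in RNA of the newborn mouse brain. Every probe set whose gene symbol begins with Hba- or Hbb-, or is Alas2, was taken, which gave 11 of the 12488 probe sets on the Affymetrix MG-U74Av2 array. Of these, 4 report alpha globin genes, 6 beta globin genes and 1 Alas2, and 3 of the 11 are shared by several globin genes. The genes were chosen with the difference between the crosses already known, so the levels by cross are described without a test.

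Whole brain was taken on postnatal day 0 (P0), and 10 arrays compared XO animals (39 chromosomes, 1 X) with XX females (40 chromosomes). The cross C57BL/6J x C3H/Paf gave 3 arrays of XmO, whose X is maternal by its name, and 3 of XX_Paf. The cross In(X)/C3H x C57BL/6J gave 2 arrays of XpO, whose X is paternal, and 2 of XX_InX. No label states which parent is the mother, whether each array is 1 animal or a pool, or whether litters were shared, and the label of XX_InX 1 writes females in the plural. Thus p-values measure the spread between these samples, which may be technical. If each cross is written with the mother first, the crosses are reciprocal and the parental origin of the autosomes differs with the cross. Among single-X animals, cross, single-X type and any processing done by cross cannot be told apart. Among XX females, which have no single-X type, cross and any processing done by cross cannot be told apart.

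Hemoglobin joins alpha-like and beta-like chains, each holding a heme group, and fills the red blood cell. Primitive red cells of the early embryo use the embryonic genes Hba-x, Hbb-y and Hbb-bh1, and definitive red cells from the fetal liver onward use the adult alpha genes Hba-a1 and Hba-a2 and the adult beta genes. C57BL/6 mice carry the Hbb-s haplotype with the adult genes Hbb-bs and Hbb-bt, while C3H mice carry Hbb-d with Hbb-b1 and Hbb-b2. Heme is made from glycine and succinyl-CoA, a chain of reactions that the X-linked gene Alas2 starts in erythroid cells and Alas1 in other cells. A brain contains vessels and the blood left in them, so its RNA includes that of red cells.

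The proximal promoters show what the adult genes share and how the embryonic genes and Alas2 differ from them. The stretches are the 150 bases before the annotated start, from RefSeq on GRCm38.p6, written 5′ to 3′ on the strand of the gene. Capitals mark CACCC (bound by KLF1 and related factors), CCAAT (the CCAAT box), TATAA (the TATA box) and GATAA (bound by GATA factors), none of which overlaps another here, searched on both strands.
Hba-a1: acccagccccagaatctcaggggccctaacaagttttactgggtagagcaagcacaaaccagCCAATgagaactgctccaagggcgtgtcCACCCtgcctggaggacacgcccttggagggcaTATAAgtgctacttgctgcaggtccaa
Hbb-bs: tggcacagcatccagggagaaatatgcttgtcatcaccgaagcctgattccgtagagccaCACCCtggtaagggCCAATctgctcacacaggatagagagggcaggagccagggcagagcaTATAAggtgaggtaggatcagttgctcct
Hbb-bt: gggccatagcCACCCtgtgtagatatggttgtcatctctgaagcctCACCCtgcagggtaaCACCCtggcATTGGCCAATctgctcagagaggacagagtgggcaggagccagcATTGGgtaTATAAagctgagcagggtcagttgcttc
Hba-x: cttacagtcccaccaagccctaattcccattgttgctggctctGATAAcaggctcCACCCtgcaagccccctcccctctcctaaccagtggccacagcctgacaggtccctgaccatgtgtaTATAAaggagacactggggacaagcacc
Hbb-y: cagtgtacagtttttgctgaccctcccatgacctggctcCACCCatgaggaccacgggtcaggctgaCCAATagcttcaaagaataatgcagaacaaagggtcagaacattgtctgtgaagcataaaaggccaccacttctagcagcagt
Alas2: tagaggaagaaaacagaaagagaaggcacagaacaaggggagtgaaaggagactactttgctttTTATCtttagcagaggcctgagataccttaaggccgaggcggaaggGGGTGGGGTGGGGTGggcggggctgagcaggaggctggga
They lie at chr11:32283522-32283671 (plus strand), chr7:103827929-103828078 (minus strand), chr7:103813924-103814073 (minus strand), chr11:32276450-32276599 (plus strand), chr7:103853208-103853357 (minus strand) and chrX:150547267-150547416 (plus strand). Hba-a2, the second adult alpha gene, holds the same letters as Hba-a1: the 300-base windows around both starts, set off by 3 bases, had 0 mismatches over 297 bases. The CACCC word, the CCAAT box and the TATA box all stood upstream of Hba-a1, Hbb-bs and Hbb-bt. In these adult genes CCAAT on the gene's strand began 88, 76 and 75 bases before the start, and TATAA 27, 29 and 28 bases before it. Hbb-bt held CACCC 3 times and CCAAT 3 times, with 2 of the latter on the opposite strand. Hba-x had CACCC with TATAA and GATAA but no CCAAT, and Hbb-y had CACCC with CCAAT and neither of the other words. The Alas2 stretch had 3 copies of CACCC in a row on the opposite strand, 40, 35 and 30 bases before the start, and GATAA on the opposite strand at 86. None of the words is rare: among 32817 promoter stretches of the same length, 37.4% held CACCC, 24.5% CCAAT, 14.2% TATAA and 13.4% GATAA. Hbb-b1, Hbb-b2 and Hbb-bh1 had no entry in the promoter table used here.

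The values are intensities on a linear scale, scaled to each other by the authors, so that every array had a mean of 500.3 once 2% was trimmed from both ends. The animals have no Y chromosome, so the brightest of 9 Y-linked probe sets on each array, which lay between 33.6 and 136.6, served as a background. Of the 11 globin and Alas2 probe sets, 8 passed a filter on low values (mean log2 intensity at or above the 30th percentile) and entered the model. Hbb-bh1 was just inside it (percentile 30.57) and Hbb-y probe set 1 just outside (25.15). Pairs of arrays had Pearson's r of 0.938 to 0.959 across genes, and genes are not independent samples. All 9 measured neuron markers, such as the tubulin gene Tubb3 (22313 to 28697), exceeded the Y-linked background on all 10 arrays.

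Hba-a1, an adult alpha globin gene, was brighter on every array of the Paf cross than on any array of the In(X) cross. In XmO it was at 9381, 8648 and 13158, and in XX_Paf at 9178, 13077 and 10344. In XpO it was at 6113 and 4541, and in XX_InX at 4475 and 2873. The Paf arrays thus began at 8648 and the In(X) arrays ended at 6113, a gap with no array in it. By group mean the order was XX_Paf (10866 ± 2001, SD, n = 3), XmO (10396 ± 2419.9, n = 3), XpO (5327 ± 1112, n = 2) and XX_InX (3674 ± 1133, n = 2). The first pair of neighbours differed by less than its spread, and the last pair only just missed overlapping. Averaged over both genotypes, the Paf cross was 2.41-fold higher (log2 1.27, SE 0.16, from limma). The probe set is annotated to Hba-a1 alone, and whether it also detects Hba-a2 RNA was not tested.

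Hbb-b2, an adult beta globin gene of the Hbb-d haplotype, divided the arrays in the same place. Its intensity was 2295, 2289.9 and 3753 in XmO and 2293, 3652 and 2974 in XX_Paf. It was 1109 and 1058 in XpO and 1393 and 930.8 in XX_InX. The lowest Paf array, at 2289.9, stood above the highest In(X) array, at 1393, while the genotypes overlapped within each cross. Group means ran from XX_Paf (2973 ± 679, n = 3) over XmO (2779 ± 843, n = 3) and XX_InX (1162 ± 327, n = 2) to XpO (1084 ± 36.1, n = 2). Within each cross the neighbours in this order did not differ beyond their spread. The Paf cross was 2.53-fold higher (log2 1.34, SE 0.17).

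A probe set shared by Hbb-b1, Hbb-b2, Hbb-bs and Hbb-bt (shared beta globin probe set 1) is annotated to the adult beta genes of both haplotypes. It was at 11132, 11916 and 15769.6 in XmO and at 11763, 15110.2 and 12149.7 in XX_Paf. It was at 8428 and 7656 in XpO and at 7935 and 4699 in XX_InX. Again no In(X) array reached the lowest Paf array, and XX_InX 19 was the lowest of all. The Paf cross was 1.84-fold higher (log2 0.88, SE 0.14). This log2 value was smaller than that of Hbb-b2, and the difference between these values was not tested. How much each of the annotated genes adds to the signal was not tested either. The other probe set with the same gene names (shared beta globin probe set 2) lay between 3.9 and 24.7, below the Y-linked background on every array.

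The probe set that both adult alpha genes share (shared alpha globin) did not separate the crosses. It was at 1709, 1882 and 2392 in XmO and at 1605, 2510.4 and 1747 in XX_Paf. It was at 1414 and 1846 in XpO and at 1799 and 1525 in XX_InX. The ranges overlapped, with XmO 7 and XX_Paf 2 the highest as they were for Hba-a1, and the log2 fold change between the crosses was 0.25 (SE 0.14). The alpha globin probe sets thus gave different values, and the cause was not tested.

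Hba-ps3, an alpha globin pseudogene, had nearly the same intensity in the 4 groups, with means of 514 ± 17.2 (XmO), 482 ± 107 (XX_Paf), 579.6 ± 128 (XpO) and 483 ± 38.5 (XX_InX). Single arrays ran from 414.5 (XX_Paf 1) to 670.4 (XpO 15), and every group overlapped the others. The log2 fold change between the crosses was -0.09 (SE 0.14).

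The embryonic globin genes had low intensities at birth, and Hbb-bh1 and Hbb-y were close to the background. Hba-x, the embryonic alpha-like gene, gave 110.2, 122.4 and 138.2 in XmO and 115.7, 107.9 and 96.4 in XX_Paf. In the In(X) cross it gave 128.4 and 181.2 in XpO and 177 and 88.6 in XX_InX. It exceeded the Y-linked background on 9 of 10 arrays, the exception being XX_InX 19. The In(X) arrays held both its highest and its lowest value, and the log2 fold change of the Paf over the In(X) cross was -0.27 (SE 0.24).

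Hbb-bh1, an embryonic beta-like gene, was above that background on 3 arrays (XmO 2, XpO 15 and XpO 18) and ranged from 51.2 to 94.9. Its means were 73.1 ± 6.58 (XmO), 59.5 ± 9.09 (XX_Paf), 77.8 ± 24.3 (XpO) and 83.6 ± 9.69 (XX_InX). Among the XX females it was lower on every Paf array (51.2 to 69.2) than on every In(X) array (76.7 to 90.4), and all of these arrays were below their Y-linked background. The share of all probe sets lower in this way was not counted, so nothing is read from this separation. For Hbb-y, the other embryonic beta-like gene, probe set 1 ranged from 32.8 to 156 and exceeded the background on the 2 XpO arrays only. Probe set 2 ranged from 12.7 to 80.7 and exceeded it on XX_Paf 1 alone. The highest value of Hbb-y probe set 1, 156, was that of XpO 18, which also had the highest Hba-x (181.2) and Hbb-bh1 (94.9).

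Alas2 was above the background on all 10 arrays and overlapped across all groups. It was at 123.4, 231.8 and 237.1 in XmO and at 154.8, 140.9 and 189.2 in XX_Paf. It was at 113.2 and 218.3 in XpO and at 119.4 and 181.3 in XX_InX. By mean the order was XmO (197 ± 64.2), XpO (166 ± 74.3), XX_Paf (162 ± 24.9) and XX_InX (150.4 ± 43.8), and no neighbours differed beyond their spread. In each In(X) group the array with more Hba-a1 had less Alas2. The log2 fold change between the crosses was 0.20 (SE 0.26).

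**Figure D1:**
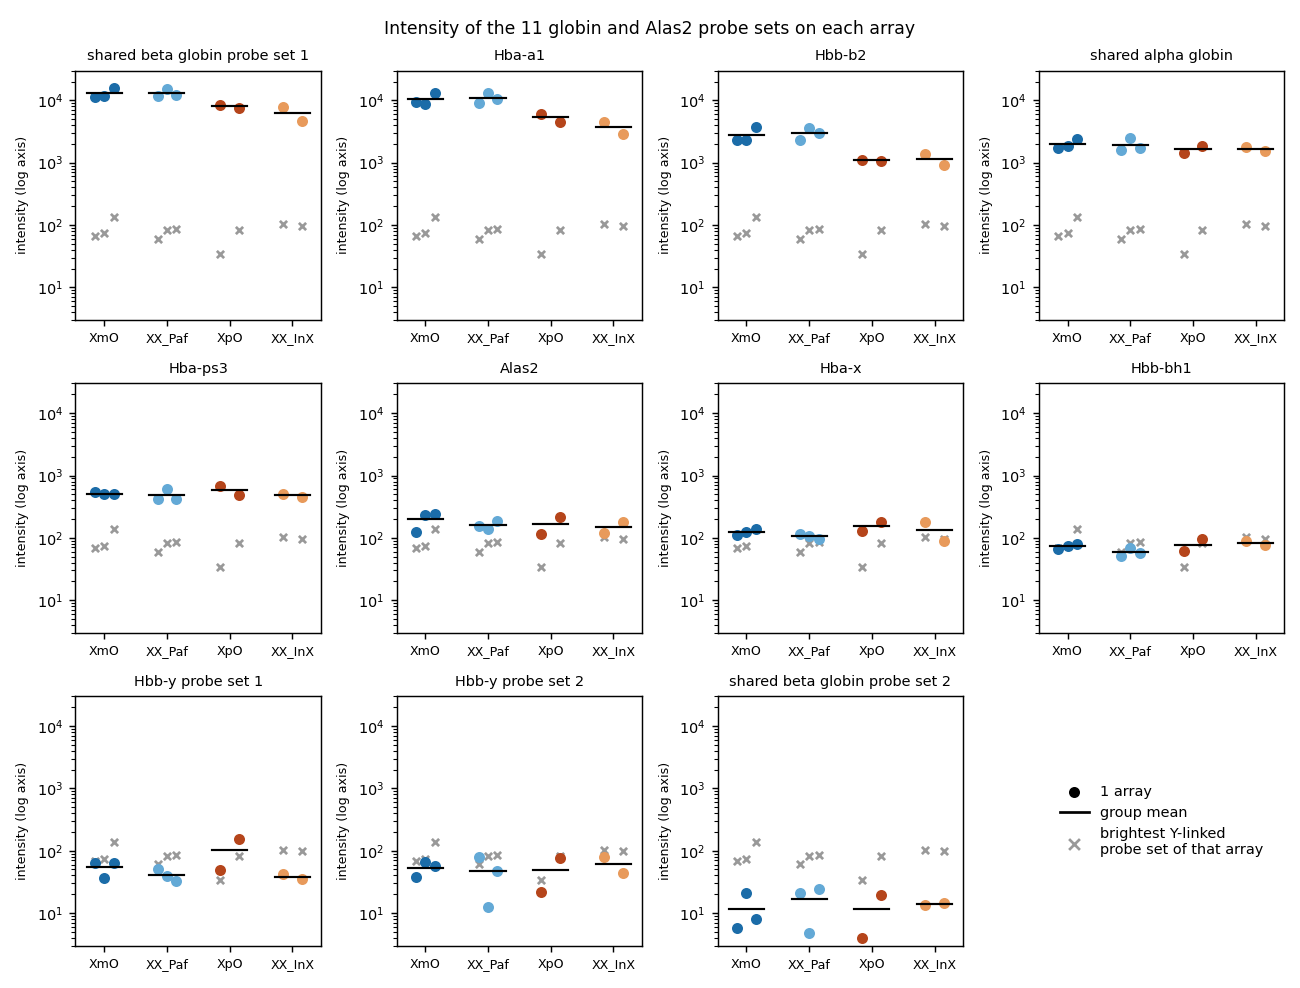
Intensity (log axis) of each of the 11 probe sets on each of the 10 arrays by group, with the group mean as a line and the brightest Y-linked probe set of the same array as a grey cross. Hba-a1, Hbb-b2 and shared beta globin probe set 1 are higher on all XmO and XX_Paf arrays than on any XpO or XX_InX array, while Hbb-bh1 and both Hbb-y probe sets lie near the grey crosses.

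Counted over the tested probe sets, 3 of the 8 (Hba-a1, Hbb-b2 and shared beta globin probe set 1) were higher on all 6 Paf arrays than on all 4 In(X) arrays. Of all 8695 tested probe sets, 1.56% were. The same 3 were higher on every XmO than on every XpO array, where 8.59% of all were, and on every XX_Paf than on every XX_InX array, where 17.6% were. Since the genes were chosen from these contrasts, nothing is read from these counts. Among single-X animals the log2 fold changes of the Paf over the In(X) cross were 0.96 for Hba-a1 (SE 0.22), 1.32 for Hbb-b2 (SE 0.24) and 0.67 for shared beta globin probe set 1 (SE 0.20). Among XX females they were 1.58 (SE 0.22), 1.36 (SE 0.24) and 1.08 (SE 0.20). Without XX_InX 19, the lowest array for all 3, the values among XX females were 1.26, 1.07 and 0.70. In bulk RNA, fewer cells of a type and less RNA per cell cannot be told apart.

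The loss of 1 X chromosome was the comparison for which the genes had not been chosen, and no globin or Alas2 probe set passed the test in it. With an adjusted p under 0.05 as the limit (limma, Benjamini-Hochberg over all 8695 probe sets), 0 of 8 were called in XO against XX, with both crosses weighted equally, where 0.0115% of all probe sets were called. In XmO against XX_Paf 0 of 8 were called (0.023% of all), and in XpO against XX_InX 0 of 8 (0.0115% of all). In the difference of the monosomy effects between the crosses 0 of 8 were called (0.023% of all). The smallest adjusted p of the 8 was 0.9995, 0.923, 0.9998 and 0.832 in these 4 contrasts. At an unadjusted p under 0.05 the counts were 0, 0, 1 and 0. In XO against XX, 7 of 8 had a higher estimate in XO, with a median log2 fold change of 0.17 beside 0.00 over all tested probe sets. In XmO against XX_Paf 5 of 8 were higher with a median of 0.08, and in XpO against XX_InX 5 of 8 with a median of 0.17.

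The single value with an unadjusted p under 0.05 was that of Hba-a1 in the In(X) cross. Both XpO arrays (6113 and 4541) were above both XX_InX arrays (4475 and 2873), with a log2 fold change of 0.56 (SE 0.24, limma adjusted p = 0.9998). It was 0.24 without XX_InX 19 and 0.87 without XX_InX 1. In the Paf cross the monosomy estimate for Hba-a1 was -0.07 (SE 0.20), and the difference between the crosses was -0.63 (SE 0.32, limma adjusted p = 0.832), so a difference in the monosomy effect was not shown. Hbb-b2 had estimates of -0.11 (SE 0.22) in the Paf cross and -0.07 (SE 0.27) in the In(X) cross. Shared beta globin probe set 1 had -0.02 (SE 0.18) and 0.40 (SE 0.22).

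Averaged over the crosses, the monosomy log2 fold change was 0.24 for Hba-a1 (95% confidence interval -0.10 to 0.58), -0.09 for Hbb-b2 (-0.47 to 0.28) and 0.19 for shared beta globin probe set 1 (-0.12 to 0.50). For X-linked Alas2 it was 0.17 (-0.39 to 0.73), and it was -0.07 without XpO 18. The lower bound for Alas2 corresponds to a ratio of 0.761 of XO to XX and the upper to 1.66. For Hba-x it was 0.25 (-0.27 to 0.77) and for Hbb-bh1 0.08 (-0.55 to 0.72). Intervals of this width do not show that the genotypes are alike.

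**Figure D2:**
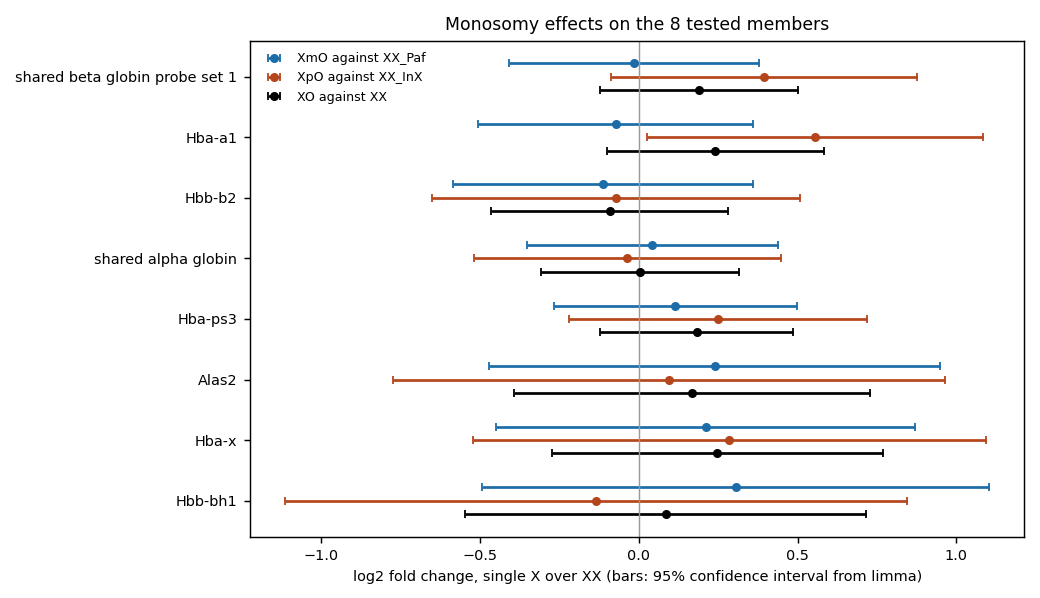
Log2 fold change of single-X over XX animals for the 8 tested probe sets, within each cross and over both, with 95% confidence intervals from limma. All intervals reach across 0 except that of Hba-a1 in XpO against XX_InX (0.03 to 1.08).

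Within groups, the 3 adult globin probe sets that separated the crosses departed from their means together on most arrays. Hba-a1, Hbb-b2 and shared beta globin probe set 1 departed from their group means in the same direction on 9 of 10 arrays, the exception being XX_Paf 3. With shared alpha globin, the remaining adult probe set, the count was 7 of 10, since it also went the other way on both XpO arrays (-0.19 on XpO 15, where Hba-a1 was at 0.21). XmO 7 was above its group mean by log2 0.36 for Hba-a1, 0.47 for Hbb-b2 and 0.30 for shared beta globin probe set 1, and XX_Paf 2 by 0.28, 0.32 and 0.23. In a group of 2 arrays the departures are mirror images, so XpO and XX_InX give 1 comparison each.

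Over the 6 arrays of the Paf cross, which the choice of genes by cross did not compare, Hba-a1 and Hbb-b2 correlated with Pearson's r = 0.978 (exact two-sided permutation p = 0.00139, adjusted p = 0.00972 over 7 relations). Spearman's rho was 1 (exact permutation p = 0.00278, adjusted p = 0.0195). Without XmO 7 and XX_Paf 2, the arrays farthest from the median of Hba-a1, r was 0.89 over 4 arrays (exact permutation p = 0.0417, the smallest that 4 arrays allow). Hba-a1 and shared beta globin probe set 1 had r = 0.942 (exact permutation p = 0.0292, adjusted p = 0.0972) and rho = 0.771 (exact permutation p = 0.103, adjusted p = 0.36), but r was 0.25 without those arrays, so the relation rests on them. The same held for shared alpha globin, with r = 0.884 (exact permutation p = 0.0417, adjusted p = 0.0972) and rho = 0.6 (exact permutation p = 0.242, adjusted p = 0.564), and -0.29 without the 2 arrays. Alas2 did not follow Hba-a1 (r = 0.086, exact permutation p = 0.838; rho = 0.143, exact permutation p = 0.803). The other relations, with Hba-ps3 (r = 0.482), Hba-x (0.196) and Hbb-bh1 (0.434), had adjusted permutation p-values of 0.535 to 0.802 for r. Without XmO 7 and XX_Paf 2 they were -0.45, -0.99 and -0.47 over 4 arrays, and for Hba-x the exact permutation p was then 0.0417, again the smallest possible, with a sign opposite to that over 6 arrays. The In(X) cross has too few arrays for a correlation.

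**Figure D3:**
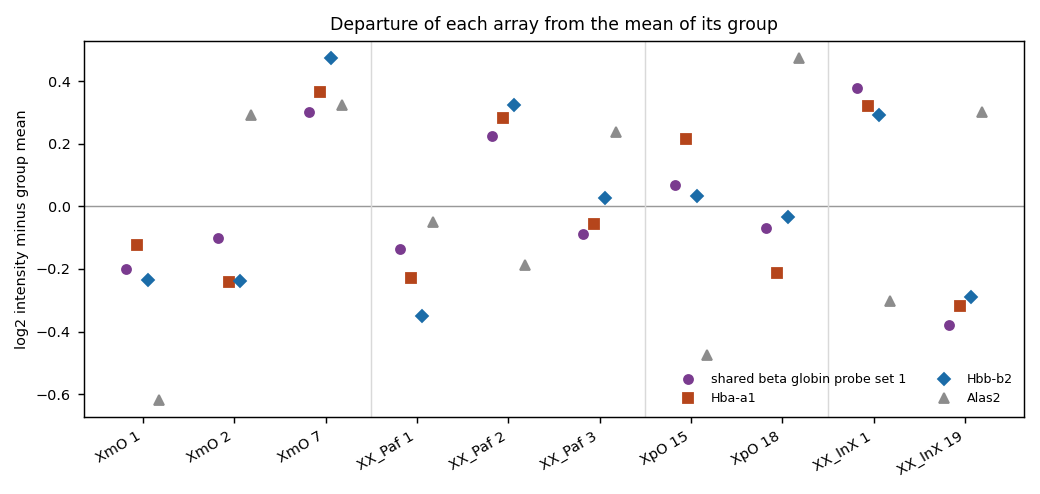
Log2 intensity of Hba-a1, Hbb-b2, shared beta globin probe set 1 and Alas2 minus the mean of the group, for each of the 10 arrays. The points of these 3 globin probe sets lie on the same side of 0 on 9 of 10 arrays, with the highest departures on XmO 7, XX_Paf 2 and XX_InX 1, while the Alas2 point often lies on the other side.

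None of the remaining heme synthesis genes tested was higher on all Paf arrays than on all In(X) arrays. Of all tested probe sets only 1.56% were, so nothing is read from this count. Of the 9 genes of the pathway 8 were measured, and the 6 tested besides Alas2 gave 0 calls in any monosomy contrast or between the crosses (limma). At an unadjusted p under 0.05 stood 2 between the crosses (Uros and Cpox) and 1 in XpO against XX_InX (Alad, 0.58). Alas1, the housekeeping first enzyme, had group means of 672 (XmO), 729 (XX_Paf), 742 (XpO) and 803 (XX_InX). Alad, the second enzyme of the chain, was at 1003, 1031, 1059 and 748 in the same order. Its low mean in XX_InX came from XX_InX 19 (509), while XX_InX 1 was at 987.5. Urod, which decarboxylates uroporphyrinogen, was at 334, 313, 234 and 308. Uros, which closes the porphyrin ring, was at 450.3, 402, 546 and 519.8, with a log2 fold change of the Paf over the In(X) cross of -0.32 (SE 0.11, limma adjusted p = 0.286). Cpox, a mitochondrial step, was at 252, 278, 287 and 412 (-0.37, SE 0.17, adjusted p = 0.379, limma). Ppox, the enzyme before the last, was at 258, 281, 217 and 289.5. Fech, which inserts the iron, was below the Y-linked background on all 10 arrays. The XO against XX estimates nearest the limit were those of Cpox (-0.31, SE 0.17), Ppox (-0.27, SE 0.16) and Alad (0.26, SE 0.16).

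Across 5 lists of erythroid and heme genes, 38 genes other than the globins and Alas2 were tested. Between the crosses 16 had a higher and 22 a lower estimate in the Paf cross, with a median log2 fold change of -0.08 beside -0.01 over all tested probe sets. By limma 0 of the 38 were called, against 0.104% of the array (9 probe sets), while 4 had an unadjusted p under 0.05 (Uros, Cpox, Tfrc and Lyl1), each lower in the Paf cross. None of the 38 was higher on all Paf arrays than on all In(X) arrays, where 1.56% of all tested probe sets were, and nothing is read from this count. In XO against XX 21 were higher and 17 lower, with 0 called by limma and 0 at an unadjusted p under 0.05. The other monosomy contrasts gave 0 calls as well, with 2, 2 and 3 genes at an unadjusted p under 0.05 in XmO against XX_Paf, XpO against XX_InX and their difference. How much of the RNA of these 38 genes comes from red cells was not tested, so the counts are not read as those of red cell RNA.

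Genes of the red cell membrane and its skeleton were measured for 8 of 20 names, and 3 exceeded the Y-linked background on all arrays. Slc4a1, the anion exchanger band 3, gave 153.9, 114.1 and 140.2 in XmO and 62.4, 100.8 and 84.4 in XX_Paf. In the In(X) cross it gave 120 and 134.3 in XpO and 190.9 and 30.5 in XX_InX. Its XO against XX log2 fold change was 0.74 (SE 0.41, limma adjusted p = 0.9995). Its lowest value was that of XX_InX 19, the array lowest in the adult globins that separated the crosses, and its highest that of XX_InX 1. XX_InX 1, however, had less Hba-a1 (4475) than any Paf or XpO array. Slc4a1 was above the Y-linked background on 8 of 10 arrays, and on XX_InX 19 it lay below it (30.5 against 97.5). Epor, the erythropoietin receptor, had -0.53 (SE 0.36) and Rhd, a blood group antigen gene, -0.50 (SE 0.49) in XO against XX. These averages join estimates of opposite sign. Epor was lower on every XmO array (38.9 to 63.3) than on every XX_Paf array (126 to 152.8), at -1.43 (SE 0.46, limma adjusted p = 0.877), and had 0.37 (SE 0.56) in the In(X) cross. Rhd had 0.82 (SE 0.61) in the Paf and -1.82 (SE 0.75, limma adjusted p = 0.9998) in the In(X) cross. The difference of the monosomy effects had an unadjusted p under 0.05 for both genes and an adjusted p of 0.832 (limma). Each was above the Y-linked background on 6 of 10 arrays. Between the crosses Rhag, an Rh-associated glycoprotein gene, had -0.34 (SE 0.21), Rhd -0.73 (SE 0.49) and Dmtn, the actin-bundling protein dematin, 0.14 (SE 0.14). Ank1 and Dmtn are known to be made in neurons too, and such sources were not checked for the other listed genes.

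Of the erythroid enzyme list, 8 of 14 names were measured and 6 tested. Tfrc, the transferrin receptor that brings in iron, had a log2 fold change of -0.50 between the crosses (SE 0.22, limma adjusted p = 0.376), the sign opposite to that of the adult globins. Car2, a carbonic anhydrase, had 0.18 (SE 0.12) and Cat, catalase, -0.19 (SE 0.14). For XO against XX, Bpgm, which makes 2,3-bisphosphoglycerate, had -0.13 (SE 0.11), Cat 0.12 (SE 0.14) and Tfrc -0.19 (SE 0.22). Car1, the erythroid carbonic anhydrase, and Hemgn, a nuclear protein of blood precursors, stayed below the Y-linked background on all arrays.

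Erythroid transcription factors were measured for 12 of 13 names and 11 were tested, with 2 higher and 9 lower estimates in the Paf cross. Lyl1, a blood bHLH factor, had -0.48 between the crosses (SE 0.21, limma adjusted p = 0.367), Nfe2, the globin-locus activator subunit, -0.71 (SE 0.33) and Myb 0.34 (SE 0.21). Klf1, which binds CACCC, had group means of 220.1 ± 115 (XmO), 168 ± 68.9 (XX_Paf), 198 ± 18.95 (XpO) and 201 ± 22.7 (XX_InX), and Gata1 of 142 ± 28.1, 158 ± 19.5, 183 ± 73.5 and 200.2 ± 45.3. For monosomy over both crosses, Lyl1 had -0.41 (SE 0.21), Klf13 0.15 (SE 0.13) and Gfi1b 0.51 (SE 0.47).

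Genes of heme breakdown and iron handling were measured for 12 of 19 names and 9 were tested. Slc11a2, an iron importer, had a log2 fold change of 0.12 between the crosses (SE 0.13), the heme oxygenase gene Hmox2 0.12 (SE 0.13) and the ferritin heavy chain gene Fth1 0.11 (SE 0.12). In XO against XX, Ireb2, an iron-responsive RNA-binding protein, had -0.30 (SE 0.14), the transporter Abcg2 -0.15 (SE 0.16) and Hmox2 0.10 (SE 0.13). Of the other globins only myoglobin (Mb) was measured, and it stayed below the Y-linked background on all arrays.

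**Figure D4:**
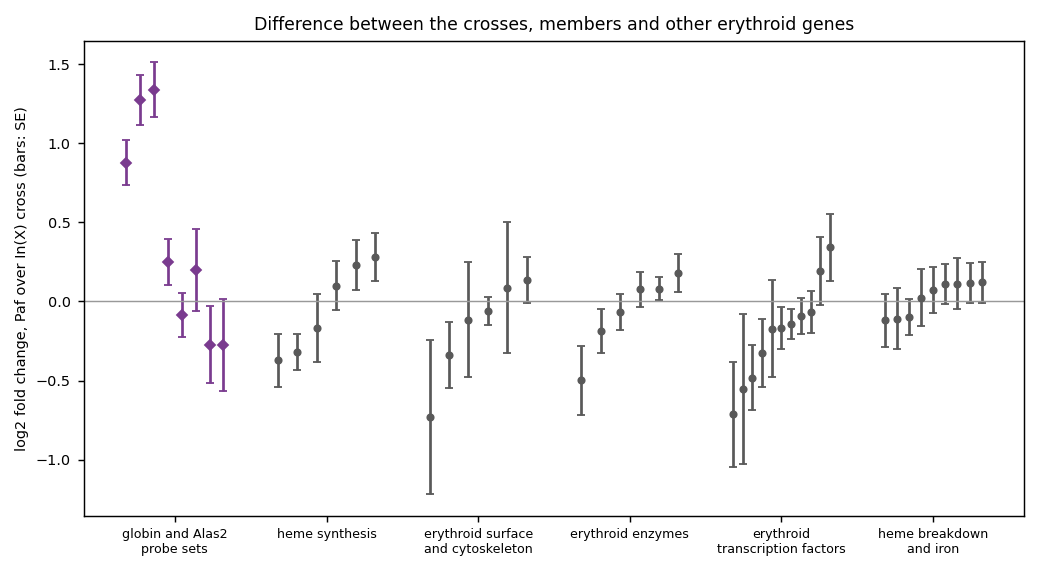
Log2 fold change of the Paf over the In(X) cross, with its SE, for the 8 tested globin and Alas2 probe sets (purple, given without a test) and for 38 other erythroid and heme genes in 5 lists (grey). Shared beta globin probe set 1, Hba-a1 and Hbb-b2 (0.88, 1.27 and 1.34) stand above every grey point, most of which lie within 0.5 of 0.

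Markers of other cells in or beside a brain were summed over each list, and their part in the globin values was not tested. The leukocyte list had 18 of 19 names measured, with Coro1a the brightest gene. Of the measured genes, 6 exceeded the Y-linked background on all arrays, Coro1a among them, and 4 were below it on all arrays. Ptprc, the common leukocyte antigen gene, was among these 4. The list summed to 2833 to 3031 in XmO, 2535 to 2667 in XX_Paf, 2452 to 3189 in XpO and 3061 to 3266 in XX_InX. The platelet list (5 of 11, brightest Gp1bb) summed to 463 to 553, 418 to 476, 397 to 599.6 and 615 to 642 in the same order. The XX_InX arrays, lowest in Hba-a1, were thus highest in this sum. Gp1bb, the only tested gene of the list, makes up much of it, at 411.5 and 399.2 in XX_InX and 226.9 to 326.2 on the other arrays. The sum therefore mostly reports this gene.

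The endothelial list (10 of 12, brightest Cldn5) summed to 3394 to 3918 in XmO, 3170.1 to 3713 in XX_Paf, 3427 to 3978 in XpO and 3846 to 3977 in XX_InX. The pericyte and smooth muscle list (7 of 8, brightest Rgs5) summed to 845 to 916, 813 to 1068, 872 to 901 and 982 to 1104 in the same order. The list for meninges and fibroblasts (8 of 8, brightest Igf2) summed to 15238 to 19219, 16229 to 16853, 16084 to 21499 and 22671 to 22845. Its sum was thus higher on both XX_InX arrays than on any other. Igf2 and Ptgds make up most of this sum. Ptgds was at 8437 and 8170 in XX_InX and at 5032 to 7515 on the other arrays, while Igf2 was highest on XpO 18 (10416). The order of the sums therefore mostly reports these genes. All 8 genes were tested, and 1 had a higher and 7 a lower estimate in the Paf cross (median log2 fold change -0.20). By limma 0 were called, while 3 had an unadjusted p under 0.05. Lower estimates in the Paf cross were thus not limited to Igf2 and Ptgds.

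The choroid plexus list (4 of 6, brightest Ttr) summed to 1397 to 2662 in XmO, 2496 to 3353 in XX_Paf, 1021 to 1959.9 in XpO and 2158 to 2274 in XX_InX. The skeletal muscle list (10 of 10, brightest Actc1) summed to 1316 to 2155, 1514 to 4797, 1450.4 to 1798 and 1482 to 1593. Its highest sum was on XX_Paf 2, an array also high in the adult globins. Much of that sum was the actin gene Acta1, at 2448 on XX_Paf 2. XmO 7, the array highest in Hba-a1, had a muscle sum of 1493. The plasma protein list (7 of 8, brightest Ttr) summed to 1409 to 2877, 2628 to 4107, 1397 to 1826 and 2094 to 2395. Ttr, which the choroid plexus list holds too, makes up much of both of these sums. Within the plasma protein list, Alb, the albumin gene of the liver, stood apart in XX_Paf at 1279.5, 554.7 and 244.9, against 23.4 to 113.9 on the other arrays. Its log2 fold change was -2.98 in XmO against XX_Paf (SE 0.70, limma adjusted p = 0.52) and 1.73 between the crosses (SE 0.56, limma adjusted p = 0.245), both with an unadjusted p under 0.05, and it was above the Y-linked background on 6 of 10 arrays. XX_Paf, the group with the highest mean of Hba-a1, thus also had the highest Alb, while XmO had a mean of Hba-a1 near it and low Alb. Of the 4 tested genes of this list, 2 had a higher and 2 a lower estimate in the Paf cross. The lower ones, Afp and Apoa2, had their lowest means in XX_Paf (70.6 and 77.4). The untested Apoa1, Apob and Ahsg had their highest means there (66.0, 51.0 and 81.5). The part of these RNAs in the globin values was not tested. The neuron list (9 of 10, brightest Tubb3) summed to 59932 to 64882, 62768 to 63902, 64448 to 69447 and 63147 to 67986.

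For RNA quality, the ratio of 3′ to 5′ control probe sets was 1.06 to 1.16 in XmO, 1.02 to 1.07 in XX_Paf, 1.08 to 1.10 in XpO and 1.11 to 1.14 in XX_InX for beta-actin. For pyruvate carboxylase it was 1.65 to 2.56, 1.79 to 2.60, 2.09 to 2.15 and 2.84 to 4.51 in the same order. The second ratio was higher on both XX_InX arrays than on any other array. For 18S RNA it was 1.90 on the lowest XmO array, 1.54 to 1.63 in XX_Paf, 1.75 to 2.30 in XpO and 0.77 to 1.64 in XX_InX. Every XmO array was thus above every XX_Paf array, with XX_InX 19, the array lowest in the adult globins that separated the crosses, at 0.77. For Gapdh it was 0.70 to 0.78 in XmO, 0.73 to 0.77 in XX_Paf, 0.72 on both XpO arrays and 0.74 to 0.82 in XX_InX, and for the transferrin receptor 2.62 to 5.07, 3.46 to 3.72, 2.64 to 3.15 and 3.14 to 3.48. Their part in the globin values was not tested.

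Over the 10 arrays Hba-a1 and Hbb-b2 correlated at 0.948 (Pearson's r of log2 values), and Hba-a1 and Alas2 at 0.112. With all globin and Alas2 probe sets left out of the candidates, the probe sets of single genes that ran most like Hba-a1 were, among 7810, Mms19 (0.953), Ddx17 (0.939), Pfkp (0.936), Ift46 (0.932), Nxf1 (0.912), Tmem245 (0.907), Wdr13 (0.902) and Ccnl2 (0.895). For Hbb-b2 they were Mms19 (0.932), Ift46 (0.931), Srsf10 (0.913), Zbtb22 (0.892), Rbm39 (0.867), Igfbp3 (0.865), Ddx17 (0.862) and Il18bp (0.860). The points share arrays and scaling, the cross difference enters every r, and no p is given. Mms19 had group means of 673 (XmO), 652 (XX_Paf), 511 (XpO) and 487 (XX_InX), a log2 fold change between the crosses of 0.41. Rbm39 was at 1329, 1101, 543 and 398 (1.34). For Rbm39, Pfkp and Igfbp3 the probe set given is not the brightest of the gene.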

How the data were processed

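RNA of whole brain was measured on 10 arrays, and the authors deposited 1 intensity per probe set and array, linear and already scaled; per the values, the trimmed mean is 500.3 on every array. The algorithm that summarised probes is not given in the sources used here. The intensities were not normalised again. Values under 15 (the 10th percentile) were raised to it and taken to log2. Of 12422 probe sets other than 66 controls, 8695 were tested. Probe sets were named through the platform annotation, which gave 1 symbol for 10833, several for 396 and none for 1193.

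In R 4.3.3, limma 3.58.1 fitted the group means, with an intensity trend in eBayes and 6 residual degrees of freedom, and gave 7 contrasts. Tests were two-sided, with Benjamini-Hochberg adjustment over all tested probe sets within a contrast. Steps were tested on simulated data. The genes and lists were chosen with earlier results of these data known. Contrasts between crosses give the globin and Alas2 values with no test. The number of arrays limits the precision. No scan dates were used here.

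The text names all globin and Alas2 probe sets and all measured heme synthesis genes. From each other erythroid list it names called genes and the 3 of smallest p in XO against XX and between the crosses. It adds the 8 probe sets most like Hba-a1 and Hbb-b2 (globins and Alas2 left out, any probe set of a gene allowed), and the brightest gene of each marker list. In the lists, a gene with several probe sets is represented by the one of highest mean. Mentions of Klf1, Gata1, Ank1, Ptprc, Mb, Car1, Hemgn, Ptgds, Acta1, Alb, Afp, Apoa1, Apoa2, Apob and Ahsg were chosen after their values were seen. Alternatives were other floors, filters and scalings, no trend, each array left out and a replicate block.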

Additional observations from a re-analysis of the deposited data

How the results depend on the processing

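The 3 probe sets higher on all Paf arrays stayed 3 under every setting that gave a value, except the pair of arrays left out together below, and 0 of 8 were called in any monosomy contrast under any of them, with a lowest adjusted p of 0.333 (limma). The correlation of Hba-a1 with Hbb-b2 ran from 0.965 to 0.99 with 1 array left out. No monosomy estimate was called, and several changed sign when 1 array was left out. In XO against XX these were Hbb-b2 (-0.24 to 0.053), shared alpha globin (-0.093 to 0.10), Alas2 (-0.070 to 0.40), Hba-x (-0.0021 to 0.50) and Hbb-bh1 (-0.077 to 0.25). In XmO against XX_Paf they were shared beta globin probe set 1 (-0.17 to 0.10), Hba-a1 (-0.25 to 0.069), Hbb-b2 (-0.35 to 0.049) and shared alpha globin (-0.10 to 0.24). In XpO against XX_InX they were Hbb-b2 (-0.36 to 0.22), shared alpha globin (-0.23 to 0.16), Alas2 (-0.38 to 0.57), Hba-x (-0.21 to 0.78) and Hbb-bh1 (-0.46 to 0.19). In the difference between crosses they were Hbb-b2 (-0.33 to 0.25), shared alpha globin (-0.11 to 0.27), Hba-ps3 (-0.36 to 0.094), Alas2 (-0.33 to 0.62) and Hba-x (-0.57 to 0.43). Shared alpha globin in XO against XX was -0.013 with quantile normalization. With XpO 18 and XX_InX 1 left out together, chosen after seeing the data, XO against XX was 0.070 for Hbb-b2, -0.033 for shared alpha globin and -0.22 for Alas2, XpO against XX_InX was 0.25 for Hbb-b2 and -0.68 for Alas2, and 4 probe sets were higher on all Paf arrays. Which arrays remain sets these values, and the cause of the other changes was not tested.

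With the replicate number as a block, which left 1 residual degree of freedom, XmO against XX_Paf was -0.28 for Hba-a1 and -0.16 for shared alpha globin, and 0 were called; XX_Paf against XX_InX, given without a test, was 1.19 for Hba-a1, 0.89 for Hbb-b2 and 0.63 for shared beta globin probe set 1. The numbers did not pair the arrays (correlations of departures -0.012 for number 1 and -0.042 for number 2 between XmO and XX_Paf). The contrasts that include XpO could not be estimated with this block.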
